A study of Mus musculus with 6 samples.

Results

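Mature miRNAs that are enriched in neurons were followed in libraries of mouse oligodendrocytes and of the extracellular vesicles (EVs) these cells released. They were chosen by name and make up 9 of the 1906 mature miRNAs in each table. They are miR-124-3p, miR-124-5p, miR-137-3p, miR-153-3p, miR-218-5p, miR-129-5p, miR-135a-5p, miR-135b-5p and miR-488-3p. All 9 passed the filter on low counts, along with 327 other miRNAs, and the lowest of their counts in any library was 10 reads, so none passed through 1 group alone.

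The material was small RNA of 15 to 200 nt from primary oligodendrocytes of C57BL/6N mice, taken at embryonic day 14 and grown in Sato medium with 1% horse serum. Both groups carried the same genotype and no drug or transgene is named. The EVs group (3 libraries, cultures at 5 to 6 days in vitro) was the pellet of a final 100000 g spin of medium conditioned for 24 h after a wash, which was Sato without serum but with B27, a defined supplement for neurons. The Cells group (3 libraries, 6 days in vitro) was whole cells. A pellet of that kind can also hold particles other than vesicles, and the labels name no step that removed neurons from the cultures. By its title, the study was about miRNAs that media supplements bring into vesicle preparations. A library of medium alone was not analysed here, so the comparison gives abundance in the pellet against abundance in the cells and not origin.

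Levels are given in CPM, counts per 1e6 counted reads of a library, computed from the deposited counts. Totals were 313766 to 689475 reads in the EVs libraries and 126910 to 202358 in the Cells libraries, so 1 read was worth between 1.45 and 3.19 CPM in EVs and between 4.94 and 7.88 CPM in Cells. Values are mean ± SD with n = 3 per group. Fold changes are EVs over Cells from edgeR's quasi-likelihood test on all 336 miRNAs kept, with trimmed mean of M-values (TMM) scaling. A miRNA was called at a Benjamini-Hochberg adjusted p below 0.05. Whether replicates came from separate cultures is not in the labels, and the p-values therefore refer to the spread of these 6 samples alone, technical spread included.

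A miRNA guides an Argonaute protein to messenger RNAs, mainly through its seed, the bases 2 to 8 from its 5′ end. Its hairpin precursor is cut into a duplex of a 5p and a 3p arm, and usually 1 arm is kept while the other is degraded. miR-124 is the classical neuron-specific miRNA of the mammalian brain and represses many transcripts of non-neuronal cells. miR-137 acts in neuronal maturation and dendrite growth, miR-153 targets transcripts of synaptic vesicle release, and miR-129-5p represses a potassium channel transcript in dendrites. miR-218 comes from hairpins inside the axon guidance genes Slit2 and Slit3 and is known for its role in motor neurons. miR-135 acts in serotonergic neurons and in axon growth, and miR-488 lies in Astn1, a gene of neuronal migration. Oligodendrocytes, the myelin-forming cells, are instead marked by miR-219 and miR-338.

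The mature sequences of 6 of the 9 members were taken from RefSeq (GRCm38.p6), and they are shown so that their seeds can be compared. Sequences of miR-124-3p, miR-124-5p and miR-135b-5p are named only. Capitals mark the seed, and each line runs 5′ to 3′.
miR-137-3p: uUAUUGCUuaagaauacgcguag
miR-153-3p: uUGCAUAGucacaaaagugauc
miR-218-5p: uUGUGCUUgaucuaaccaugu
miR-129-5p: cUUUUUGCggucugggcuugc
miR-135a-5p: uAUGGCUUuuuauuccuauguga
miR-488-3p: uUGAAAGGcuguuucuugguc
The 6 printed sequences had 6 distinct seeds. Among the other mature miRNAs of the RefSeq table, which is not complete, miR-7002-3p carried the seed of miR-218-5p, and it was listed at 0 reads in all 6 libraries. Of the members' hairpins, Mir137 lies on chromosome 3, Mir153 on chromosome 12 within the bounds of Ptprn2, and Mir488 on chromosome 1 within the bounds of Astn1. Mir135a-1 and Mir135a-2 lie on chromosomes 9 and 10, and Mir135b on chromosome 1.

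Neuronal miRNAs were plentiful in the cell libraries as well as in the pellet. miR-124-3p stood at 6063, 13009 and 9286 CPM in Cells replicates 1, 2 and 3, where it ranked between 20 and 29 of all miRNAs. In EVs replicates 1, 2 and 3 it stood at 27833, 26915 and 20115 CPM, and ranked between 8 and 13. Each EVs library lay above each Cells library, and EVs replicate 3 was the lowest of its group. The EVs mean was 24954 ± 4216 CPM and the Cells mean 9453 ± 3476 CPM, and miR-124-3p rose by 0.97 in log2 units (SE 0.25, edgeR adjusted p = 0.00832). Leaving out EVs replicate 1 (0.85, adjusted p = 0.0636) or EVs replicate 2 (0.74, adjusted p = 0.0846) ended the call, and over 17 alternatives the adjusted p ranged from 4.49e-06 to 0.0846. In bulk samples such as the Cells libraries, the number of neurons and the amount of miR-124 per neuron cannot be told apart. A pellet gives neither.

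Among the cell libraries, the highest value of miR-124-3p was 2.15 times the lowest, against 1.38 times in EVs. The 95% exact binomial intervals, which cover counting error only, were 5684 to 6461 CPM in replicate 1, 12393 to 13648 CPM in replicate 2 and 8872 to 9713 CPM in replicate 3, and none of them overlapped another. Over all miRNAs, too, every pair of replicates differed beyond counting error, with chi-square at 7.73 to 37.5 times its degrees of freedom.

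miR-124-5p, the arm that is mostly discarded, followed its partner at a far lower level. It stood at 174, 207 and 177 CPM in EVs replicates 1, 2 and 3 and at 64.0, 102 and 64.2 CPM in Cells, from 10 to 13 reads in each Cells library. The groups did not overlap, and Cells replicate 2 was the highest of its group for both arms. It rose by 0.84 in log2 units (SE 0.29, edgeR adjusted p = 0.0333), a call held in 7 of 17 alternatives. Among the 6 left-out libraries it held only without Cells replicate 2 (adjusted p = 0.0366). Leaving out EVs replicate 1 gave 0.85 (adjusted p = 0.0796), EVs replicate 2 gave 0.61 (0.141), EVs replicate 3 gave 0.89 (0.0664), Cells replicate 1 gave 0.79 (0.0830) and Cells replicate 3 gave 0.67 (0.168).

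miR-137-3p was close to even within each group. It stood at 2109, 1676 and 1767 CPM in EVs and at 826, 796 and 909 CPM in Cells, in the order of replicates 1, 2 and 3. Every EVs value lay above every Cells value, and the coefficient of variation was 12.3% in EVs and 6.97% in Cells, against 36.8% for miR-124-3p in Cells. The log2 fold change was 0.66 (SE 0.20, edgeR adjusted p = 0.0184). It was no longer called when EVs replicate 1 (0.53, adjusted p = 0.0842), Cells replicate 2 (0.58, 0.0701) or Cells replicate 3 (0.67, 0.0603) was left out, and the value stayed between 0.53 and 0.71 when any library was left out.

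miR-488-3p, from the Astn1 locus, was close to miR-137-3p in its spread. It stood at 981, 845 and 1102 CPM in EVs and at 448, 536 and 474 CPM in Cells, with no overlap between the groups. Its log2 fold change of 0.54 (SE 0.19, edgeR adjusted p = 0.0358) was the smallest among the members called higher. Blocking on the replicate number gave 0.54 with an adjusted p of 0.0535, and leaving out any of the 6 libraries gave 0.45 to 0.57 (adjusted p = 0.0504 to 0.149), so the call was lost in each case.

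miR-218-5p went the other way. It was the next most abundant member, with 7253, 8494 and 6105 CPM in EVs and 9898, 8660 and 9305 CPM in Cells. All EVs values lay below all Cells values, but EVs replicate 2 and Cells replicate 2 came close. The log2 fold change was -0.81 (SE 0.22, edgeR adjusted p = 0.0104), and the call was kept without each library in turn (-1.09 to -0.68). It ended with scaling by library size only (-0.35, adjusted p = 0.108). Cells, which for most members varied more than EVs, varied little here, with a coefficient of variation of 6.67%.

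miR-129-5p did not pass the test although its groups were apart in CPM. It stood at 3833, 4239 and 4093 CPM in EVs and at 2798, 1931 and 2031 CPM in Cells, so the lowest EVs library lay above Cells replicate 1, the highest of its group. The log2 fold change was 0.36 (SE 0.24, edgeR adjusted p = 0.232). It was called without Cells replicate 1 (0.63, adjusted p = 0.0172) and with library size only (0.85, adjusted p = 0.00500).

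The miR-135 pair and miR-153-3p overlapped between the groups. miR-135a-5p stood at 517, 778 and 569 CPM in EVs and at 288, 607 and 440 CPM in Cells (log2 fold change 0.05, SE 0.28, edgeR adjusted p = 0.895). miR-135b-5p stood at 299, 574 and 482 CPM in EVs and at 333, 583 and 331 CPM in Cells (-0.31, SE 0.31, edgeR adjusted p = 0.425). For both, replicate 2 was the highest library of each group. miR-153-3p stood at 415, 319 and 489 CPM in EVs and at 166, 284 and 346 CPM in Cells (0.16, SE 0.25, edgeR adjusted p = 0.629), and Cells replicate 1 was the lowest library. The direction of miR-135a-5p turned with DESeq2 size factors (-0.01), upper-quartile scaling (-0.09) and without EVs replicate 2 (-0.31). miR-135a-5p and miR-135b-5p belong to 1 miRNA family, and how the authors' counting assigned reads that match both is not given in the sources used here.

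**Figure D1:**
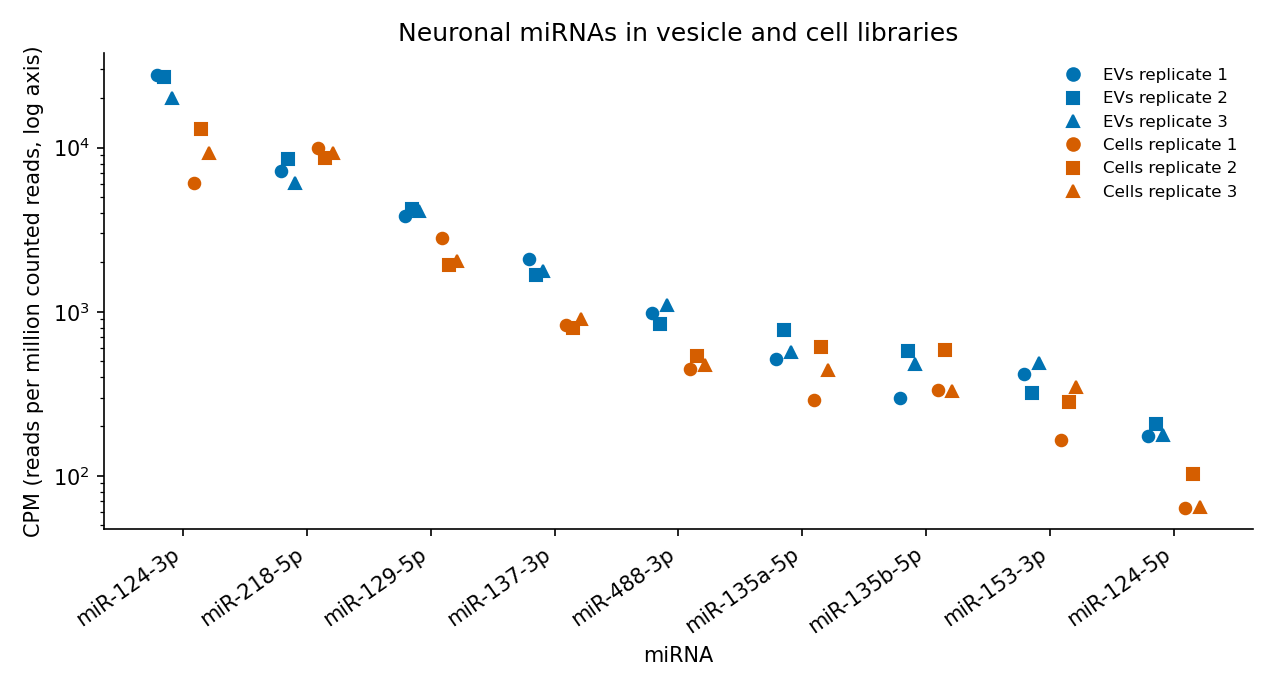
CPM on a log axis (vertical) of the 9 neuronal miRNAs (horizontal, ordered by the EVs mean); each symbol is 1 library, blue for EVs and orange for Cells, and the shape gives the replicate number. miR-124-3p lies between 20115 and 27833 CPM in EVs and between 6063 and 13009 CPM in Cells, and miR-218-5p is the member whose Cells libraries all lie above its EVs libraries.

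Of the 9 members, 4 were called higher in EVs and 1 lower, against a background of 28.6% higher and 28.9% lower among all 336 miRNAs tested, or 57.4% in either direction. The groups did not overlap in CPM for 5 members with EVs higher and 1 with EVs lower, where 47.3% and 20.2% of all tested miRNAs did the same. With so large a share of all miRNAs called, these counts do not set the members apart. The median log2 fold change of the members was 0.36, and that of all tested miRNAs was 0.06. The number called higher fell to 1 without EVs replicate 2 and without Cells replicate 3, and to 2 without EVs replicate 3 or Cells replicate 2. Without EVs replicate 1 it was 0 by edgeR, with 3 at an unadjusted p below 0.05. Higher calls over all miRNAs, 96 of 336 with every library, were fewer as well: 68 of 328 without EVs replicate 1, 66 of 328 without EVs replicate 2, 91 of 328 without EVs replicate 3, 77 of 381 without Cells replicate 2 and 72 of 383 without Cells replicate 3.

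The scaling decided several of these calls. With library size only, the median of all tested miRNAs moved from 0.06 to 0.54 and that of the members from 0.36 to 0.85. Then 5 members were called higher, with a background of 44% of all tested miRNAs. No member was called lower, also at an unadjusted p below 0.05, with a background of 17.9%. Relative to the median of all miRNAs, miR-124-3p lay above and miR-218-5p below under both scalings.

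**Figure D2:**
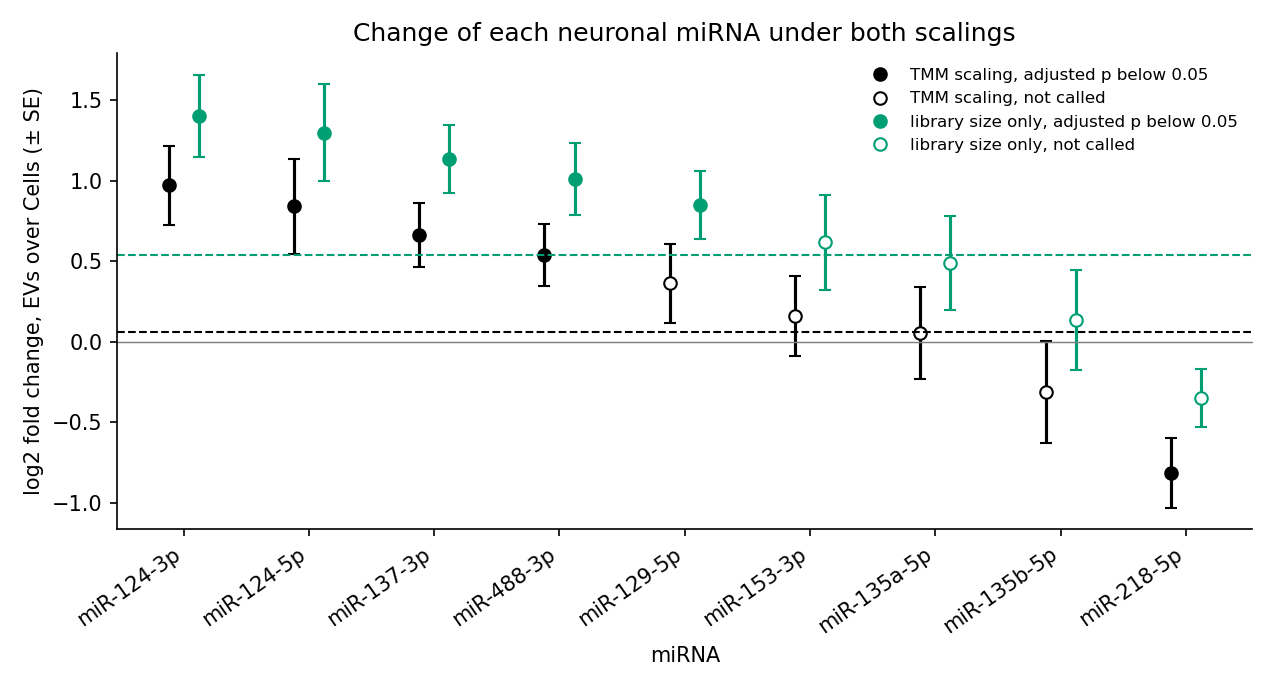
Log2 fold change of EVs over Cells (vertical, bars show ± 1 SE) for each neuronal miRNA (horizontal) with TMM scaling in black and library size only in green; filled points have an adjusted p below 0.05, and dashed lines give the median of all 336 miRNAs under each scaling, 0.06 and 0.54. The order of the members is the same under both, and miR-218-5p is the lowest.

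The members together held 4.34%, 4.40% and 3.49% of counts in EVs replicates 1, 2 and 3 and 2.09%, 2.65% and 2.32% in Cells. In net terms, most of that difference was miR-124-3p. The other members partly offset each other: miR-218-5p was lower in EVs, while miR-129-5p, miR-137-3p and miR-488-3p were higher in CPM. Without miR-124-3p the sums were 1.58% ± 0.12 in EVs and 1.41% ± 0.07 in Cells, and the ranges of 1.48% to 1.71% and 1.35% to 1.48% overlapped at their ends. Within the sum, miR-124-3p held 57.6% to 64.1% in EVs and 29.0% to 49.1% in Cells, and miR-218-5p held 16.7% to 19.3% and 32.7% to 47.4%. miR-129-5p held 8.83% to 11.7% in EVs and 7.28% to 13.4% in Cells.

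The order of levels was the same in both groups by their means. In EVs it ran from miR-124-3p over miR-218-5p, miR-129-5p, miR-137-3p and miR-488-3p to miR-135a-5p, and each of these was separate from the next in its range of CPM. miR-135a-5p overlapped with miR-135b-5p, and miR-135b-5p with miR-153-3p, while miR-124-5p lay below all of them. In Cells, miR-124-3p (9453 ± 3476 CPM) and miR-218-5p (9288 ± 619 CPM) overlapped, and so did miR-488-3p and miR-135a-5p. Levels of different miRNAs in CPM also carry the ligation preference of the adapters, which was not measured.

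Most oligodendrocyte miRNAs were present at high levels in the Cells libraries, which the labels name as oligodendrocytes. In Cells, miR-219a-2-3p stood at 23529 ± 5180 CPM, miR-138-5p at 4582 ± 785 CPM, miR-338-5p at 4037 ± 378 CPM and miR-219a-5p at 3473 ± 246 CPM. miR-219b-5p was listed at 0 reads in all Cells libraries. miR-124-3p was thus below miR-219a-2-3p and above the other members of the miR-219 and miR-338 hairpins in the mean. Of the oligodendrocyte list of 6, 5 were tested, with 2 called higher in EVs and 3 lower, where 28.6% and 28.9% of all miRNAs were called. Higher were miR-138-5p and miR-219a-5p, and lower were miR-219a-2-3p, miR-338-3p and miR-338-5p. The number higher was 1 with the replicate block (91 of 336 over all miRNAs). It was also 1 without EVs replicate 2 (66 of 328), Cells replicate 2 (77 of 381) or Cells replicate 3 (72 of 383). The number lower was 2 with library size only (60 of 336). The list summed to 33961 to 43435 CPM in Cells and 33559 to 36111 CPM in EVs, and the 9 neuronal miRNAs to 20885 to 26507 CPM and 34898 to 44046 CPM.

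A ratio of reads within a library does not depend on the scaling between libraries, and miR-124-3p was therefore set against 8 other miRNAs, chosen after their values were seen and so without a test. Per read of miR-219a-2-3p there were 1.98, 2.40 and 1.53 reads of miR-124-3p in EVs and 0.206, 0.648 and 0.441 in Cells. Per read of miR-219a-5p, the other arm of a miR-219 hairpin, there were 3.70, 2.45 and 3.14 in EVs and 1.66, 4.08 and 2.60 in Cells. The first ratio separated the groups and the next did not, although both references are oligodendrocyte miRNAs. The groups were also apart against miR-338-3p (12.7 to 16.0 in EVs, 2.88 to 5.58 in Cells), miR-338-5p (13.2 to 23.9 and 1.36 to 3.52) and miR-9-5p (0.215 to 0.307 and 0.0314 to 0.0724), the most abundant miRNA of the tables.

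They overlapped against miR-138-5p (1.85 to 2.93 in EVs, 1.62 to 2.78 in Cells), a miRNA of both oligodendrocytes and neurons. They also overlapped against miR-128-3p (0.297 to 0.354 and 0.138 to 0.588), an abundant miRNA of neurons. Within the members, miR-124-3p per read of miR-218-5p was 3.84, 3.17 and 3.30 in EVs and 0.613, 1.502 and 0.998 in Cells, with no overlap. In total the groups were apart with EVs higher for 5 of 8 references and overlapped for 3. For miR-137-3p against the same 8, the numbers were again 5 and 3. For both, the 5 were the references called lower in EVs by edgeR and the 3 were those called higher. These numbers therefore follow from the fold changes and add no support. miR-218-5p, against 7 of the 8 references, was higher in EVs for 3, lower for 3 and overlapping for 1. Its ratio was higher in EVs per read of miR-219a-2-3p (0.464 to 0.757 in EVs, 0.336 to 0.442 in Cells), miR-338-5p and miR-9-5p, and lower per read of miR-219a-5p (0.772 to 0.964 and 2.60 to 2.71), miR-138-5p and miR-128-3p. Cells replicate 2 had the highest ratio of its group and Cells replicate 1 the lowest for each of the 8 references of miR-124-3p.

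**Figure D3:**
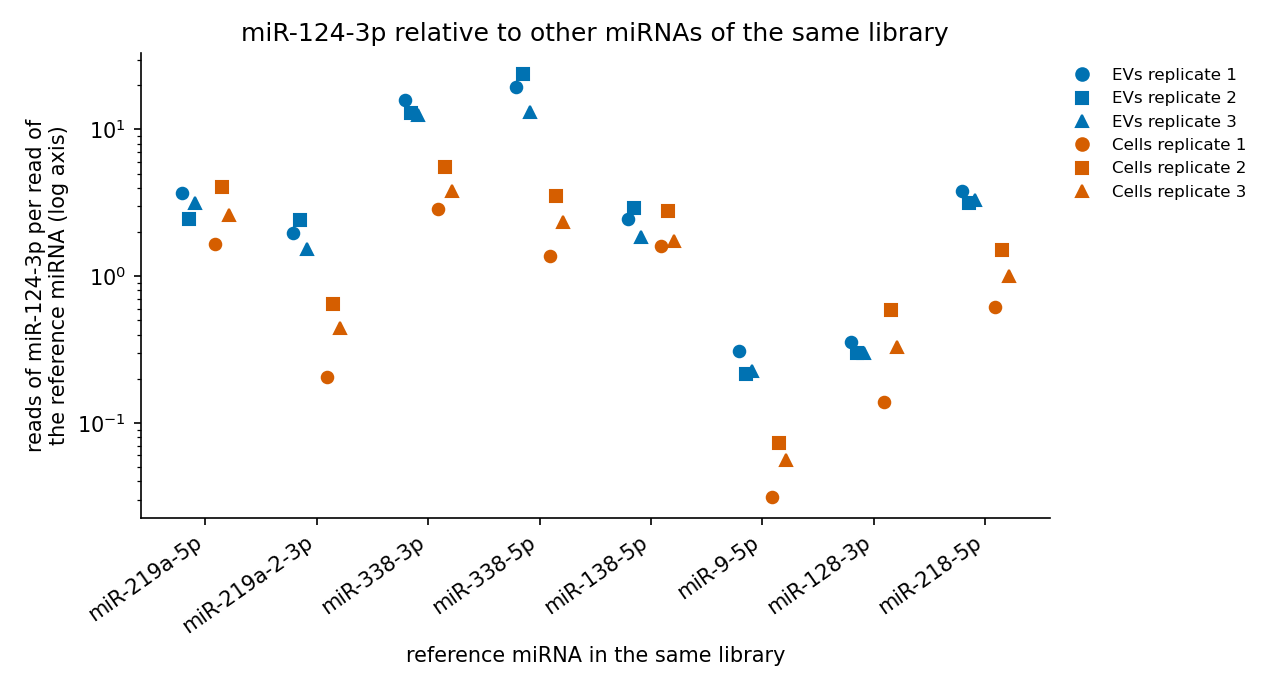
Reads of miR-124-3p per read of a reference miRNA (horizontal) in the same library, on a log axis (vertical); each symbol is 1 library, blue for EVs and orange for Cells, with the shape giving the replicate. The groups are apart for miR-219a-2-3p, miR-338-3p, miR-338-5p, miR-9-5p and miR-218-5p and overlap for miR-219a-5p, miR-138-5p and miR-128-3p.

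Markers of other cell types were also in the libraries, and their part in the values above was not tested. Their counts of calls stand against 28.6% called higher and 28.9% called lower among all miRNAs, or 44% and 17.9% with library size only. Lower calls over all miRNAs were 98 of 383 without Cells replicate 1 and 88 of 383 without Cells replicate 3. Higher calls over all miRNAs were 66 of 328 without EVs replicate 2. The 5 microglial and myeloid miRNAs, with miR-146a-5p the most abundant, summed to between 612 and 1936 CPM in EVs and between 1592 and 4566 CPM in Cells. Of these, 4 were called lower in EVs, 2 without Cells replicate 1, and 1 without Cells replicate 3 or with library size only. The 5 astrocyte miRNAs summed to 4940 to 8025 CPM and 1970 to 2734 CPM, mainly miR-29a-3p and miR-143-3p, which other cells express too, and of 4 tested 2 were called higher and 1, miR-23a-3p, lower. That last call ended with library size only, without EVs replicate 2, and without Cells replicate 1 or 3. The 2 endothelial miRNAs summed to 182 to 303 CPM and 63.0 to 93.9 CPM, and 1 was called higher, or 2 when EVs replicate 2 was left out or the library size was used. The 3 erythroid miRNAs summed to 3944 to 7835 CPM and 212 to 256 CPM, with miR-451a at 2841 to 5981 CPM in EVs. Both that were tested were called higher. In Cells replicates 1, 2 and 3, miR-451a had only 12.8, 55.2 and 14.8 CPM. There miR-126a-5p, the endothelial call, had 32.0, 31.5 and 39.5 CPM. These are a few reads per library. Both miRNAs passed the filter on low counts because of their EVs libraries, which favours a higher call. No size of difference is drawn from these 2 calls.

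Further neuron-enriched miRNAs, a list of 28 with none of the 9, moved in both directions. Of 25 that were tested, 11 were called higher in EVs and 5 lower, which is 44% and 20% against the background given above for the TMM calls, with a median log2 fold change of 0.58. The number called higher was 7 without Cells replicate 3 (72 of 383 over all miRNAs), 8 without EVs replicate 1 (68 of 328), and 15 with library size only (148 of 336). The most abundant were miR-9-5p (101575 ± 20711 CPM in EVs, 179522 ± 13468 CPM in Cells), miR-128-3p (78838 ± 11196 and 31365 ± 11281 CPM), miR-9-3p (35750 ± 1755 and 25577 ± 6712 CPM) and miR-132-3p (9885 ± 1198 and 4014 ± 380 CPM). miR-132-3p, an activity-regulated miRNA of neurons, rose by 0.84 in log2 units (SE 0.20, edgeR adjusted p = 0.00580), close to miR-124-3p. miR-9-5p, which neural progenitors express as well, fell by 1.28 (SE 0.21, edgeR adjusted p = 0.000870).

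The miRNAs whose profile over the 6 libraries was most like that of miR-124-3p were sought among 247 non-members of at least 100 CPM. Likeness was the root mean square difference of log2 CPM, each miRNA centred on its own mean. The closest were miR-345-3p (0.22), miR-708-5p (0.22), miR-212-3p (0.22), miR-410-3p (0.23) and miR-19b-3p (0.23). miR-708-5p, for example, stood at 2283, 2795 and 1868 CPM in EVs and at 410, 1016 and 623 CPM in Cells, with Cells replicate 1 the lowest library, as for miR-124-3p. miR-19b-3p stood at 18508, 21975 and 16539 CPM in EVs and at 3355, 7344 and 6741 CPM in Cells. All 6 libraries enter this measure, so it includes the difference between the groups.

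The arms of a hairpin come from 1 precursor, and their ratio within a library is free of scaling. The 3p arm of miR-124 made up nearly all of its reads in both groups: the 5p arm held 0.62%, 0.76% and 0.87% of them in EVs and 1.04%, 0.78% and 0.69% in Cells, so the groups overlapped. The log2 ratio of 5p to 3p differed by -0.20 between EVs and Cells (SE 0.41, limma adjusted p = 0.723). The interval of a 5p share of pooled reads was 0.669% to 0.855% in EVs and 0.559% to 1.10% in Cells, by the exact binomial method and for counting error only.

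Over 187 tested hairpins, 35.8% were called in either direction and 23% had a lower share of the 5p arm in EVs, with a median difference of -0.46. Of the 8 hairpins of the members, 3 were called, miR-137 (limma adjusted p = 0.0130), miR-218 and miR-135b (-1.62, SE 0.54, adjusted p = 0.0449). All 3 had a lower ratio of 5p to 3p in EVs and rested on few reads of the discarded arm. miR-137-5p had 2 reads in EVs against 2653 of the 3p arm, and 4 against 414 in Cells. By replicates 1, 2 and 3, these were 2, 0 and 0 reads in EVs and 0, 2 and 2 in Cells. With 0 reads, the ratio is set by the value added to each arm and by depth, so miR-137 is given no size. Its 5p share of pooled reads had exact binomial intervals of 0.00912% to 0.272% in EVs and 0.261% to 2.43% in Cells, which overlap. The miR-218 3p arms had 16 reads in EVs, a share of 0.160% (95% exact binomial interval 0.0913% to 0.259%), and 0 of 4528 in Cells, which allows up to 0.0663% by a limit of 3 reads and 0.0814% by the exact binomial bound. With no 3p read in any Cells library, the Cells ratio of miR-218 is set by the value added to each arm and by depth, so no size of difference is given for it. miR-135b-3p had 27, 10 and 27 reads in EVs and 1, 2 and 2 in Cells.

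The size of these differences depended on the value added to each arm, 0.5 reads. With 2 reads added, miR-218 was no longer called (limma adjusted p = 0.185) and miR-135b stood at -0.97 (adjusted p = 0.103). miR-137 kept its call, but with 0 or 2 reads of its 5p arm in each library, that call too is set by the added value and by depth. miR-135b also lost its call without EVs replicate 1 (-1.08, adjusted p = 0.152), EVs replicate 3 (-1.76, 0.0787) or any 1 of the Cells libraries (-1.70 to -1.51). The hairpins of miR-129 (0.48), miR-135a (-0.12), miR-153 (-0.14) and miR-488 (-0.21) were not called, with SEs of 0.49 to 0.68.

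Copies of a miRNA can be told apart where their discarded arms differ. Both hairpins of miR-218 are shown for that reason, and Mir129-2 as the copy that gave most 3p reads of miR-129. Capitals mark the mature arms listed by RefSeq (GRCm38.p6), and each line runs 5′ to 3′.
Mir218-1: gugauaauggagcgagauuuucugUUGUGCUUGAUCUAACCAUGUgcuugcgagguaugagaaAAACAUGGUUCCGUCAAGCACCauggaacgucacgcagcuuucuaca
Mir218-2: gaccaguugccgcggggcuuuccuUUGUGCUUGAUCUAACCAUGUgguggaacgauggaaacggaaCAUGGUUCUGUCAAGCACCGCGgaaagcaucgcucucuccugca
Mir129-2: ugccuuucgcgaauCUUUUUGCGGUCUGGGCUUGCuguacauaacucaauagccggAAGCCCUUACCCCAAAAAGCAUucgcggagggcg
Mir218-1 lies on chromosome 5 within Slit2 and Mir218-2 on chromosome 11 within Slit3, and both give the same miR-218-5p. Of the 16 EVs reads of their 3p arms, 14 belonged to miR-218-2-3p and 2 to miR-218-1-3p. The 3p arms of miR-129 gave more reads: those of Mir129-2 on chromosome 2 made up 94.9%, 93.2% and 93.6% of them in EVs and 91.1%, 90.1% and 91.7% in Cells, the rest coming from Mir129-1 on chromosome 6. Counting intervals of single libraries were as wide as 78.8% to 97.5%, in Cells replicate 1 with 45 reads.

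miR-129-5p and its 3p arms did not move together among the cell libraries. In Cells replicate 1 there were 9.71 reads of miR-129-5p per read of the 3p arms, against 1.52 in replicate 2 and 2.27 in replicate 3, while the EVs libraries had 4.44, 5.99 and 3.36. miR-129-2-3p stood at 263, 1143 and 820 CPM in Cells and 819, 660 and 1139 CPM in EVs. Cells replicate 1 was thus the highest of its group for miR-129-5p and the lowest for miR-129-2-3p and for miR-124-3p. The log2 ratio of the arms of miR-129 differed by 2.66 between Cells replicates 1 and 2, a pair of libraries chosen after the values were seen. A difference of that size was reached by 10 of 187 hairpins in either direction, miR-129 included, and by 2 in the same direction, with a median of 0 over all hairpins. Mir129b overlaps Mir129-2 on the opposite strand, and both its arms were listed at 0 reads in every library, where a count of 0 allows up to 3.

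**Figure D4:**
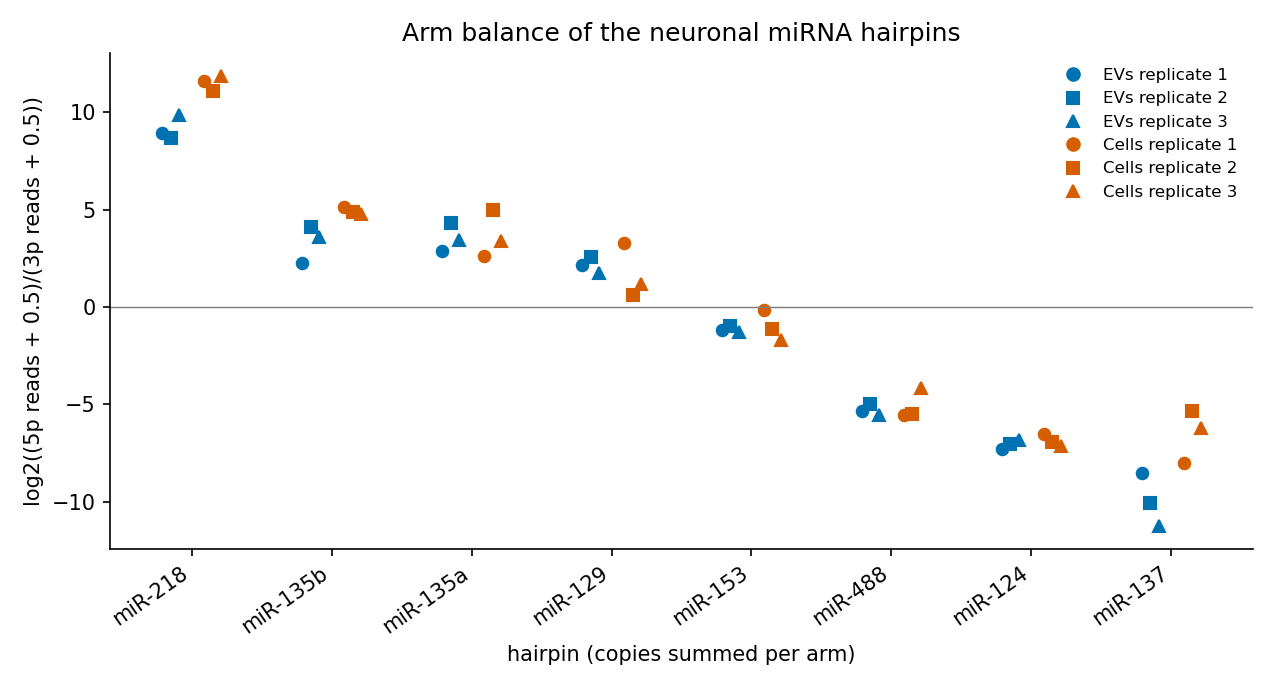
Log2 of the ratio of 5p to 3p reads, with 0.5 added to each arm (vertical), for the 8 hairpins of the neuronal miRNAs (horizontal, copies summed per arm); each symbol is 1 library, blue for EVs and orange for Cells, with the shape giving the replicate. miR-218 and miR-135b keep the 5p arm and miR-124 and miR-137 the 3p arm in every library, and Cells replicate 1 stands above the other Cells libraries for miR-129. The Cells libraries of miR-218 have 0 reads of the 3p arm, and miR-137 has 0 reads of the 5p arm in EVs replicates 2 and 3 and Cells replicate 1.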

How the data were processed

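Small RNA was sequenced from 3 EVs and 3 Cells samples, grouped and numbered by the labels. The authors deposited whole-number counts of reads per mature miRNA, 1 table of 1906 miRNAs per sample. The tools were featureCounts 1.4.6-p4, Bowtie 0.12.8, cutadapt 1.7.1 and bcl2fastq 1.8.4, with the build NCBIM37 (mm9), per the submitters' processing notes. Settings, multi-mapping, strand, and any use of the 4 random adapter bases against PCR duplicates were not given in the sources used here.

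The counts were tested with edgeR 4.0.16 (R 4.3.3, glmQLFit, glmQLFTest, two-sided, group only) after filterByExpr at a minimum count of 10 and TMM scaling. Adjustment was by Benjamini-Hochberg over all 336 miRNAs, and each SE was the fold change over the root of F. The common biological coefficient of variation came to 23.8%. Arm ratios were tested with limma 3.58.1 on log2((5p + 0.5)/(3p + 0.5)) for the 187 hairpins whose arms together had 10 or more counts in each library. Both fits were tested on simulated data. Intervals are 95% exact binomial. CPM carries no TMM factor.

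Named miRNAs were the 9 members, the other arms of their hairpins, the 4 most abundant of each list (fewer are given where a list is only summed), and the 5 most like miR-124-3p. Members and lists were chosen with earlier results of these data known, so their p-values do not come from an independent choice.

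Deviations from the group mean were correlated between same-numbered EVs and Cells libraries. Over 336 miRNAs r was 0.115, 0.103 and 0.254, against -0.140 to 0.020 for other pairs. Deviations within a group sum to 0, so the other pairs are not an independent contrast, and a pairing was not assumed. The reported tests used group only, and the replicate number entered as a block in an alternative. No library was a copy of another: chi-square over its degrees of freedom was between 7.73 and 37.5 for replicates. Alternatives were other scalings and filters, DESeq2 1.42.0, limma-voom, a replicate block, thinning to 126910 reads, left-out libraries, and left-out or summed miRNAs. Sequences came from RefSeq's table of another build than the authors', so no coordinates are given.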

Additional observations from a re-analysis of the deposited data

How the results depend on the processing

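The 9 members were compared under 17 alternatives. miR-218-5p kept its call in 16 of them, miR-124-3p in 15, miR-137-3p in 14, and miR-124-5p and miR-488-3p in 7 each. The number of members called higher, 4 with the settings reported, was 2 with DESeq2 size factors in edgeR, upper-quartile scaling or without the most abundant miRNA, and between 0 and 3 over the 6 left-out libraries (0 by edgeR without EVs replicate 1, with 3 at an unadjusted p below 0.05). It was 3 with DESeq2, limma-voom or the replicate block, and the block changed no member's call but that of miR-488-3p. Higher calls over all 336 miRNAs were 96 with the settings reported, 91 with DESeq2 size factors in edgeR and 85 with upper-quartile scaling. They were 89 with DESeq2, 98 with limma-voom and 91 with the block, 84 of 337 without the most abundant miRNA, and 66 to 101 over the left-out libraries. The number of members called lower was 0 with library size only, where 60 of 336 miRNAs were called lower. There, also 0 members had a negative change with an unadjusted p below 0.05. Directions turned only for values that were not called. miR-135a-5p was at -0.012 with DESeq2 and with its size factors, -0.089 with upper-quartile scaling, -0.065 without the most abundant miRNA and between -0.31 and 0.28 over the left-out libraries. miR-135b-5p was at 0.13 with library size only, and miR-153-3p between -0.043 and 0.37 over the left-out libraries.

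For the arm ratios, miR-135a was at 0.15 with a pseudocount of 2 and at -0.65 to 0.53 with a library left out. With a library left out miR-129 ranged from -0.064 to 1.27, miR-153 from -0.49 to 0.28 and miR-488 from -0.45 to 0.26. The number of hairpins called, 67, was 36 to 60 with a library left out and 97 with a pseudocount of 2. The members' summed share, 4.08% in EVs and 2.35% in Cells, was 1.58% and 1.41% without miR-124-3p, and 4.55% and 2.87% of the counts left without the most abundant miRNA. Depth limits the arm ratios of miR-137, miR-218 and miR-135b, whose discarded arms had 0 to 2 reads in each Cells library. The cause of these changes was not tested.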

Other observations

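The arms of miR-132 and miR-212, chosen after their values were seen, moved in opposite directions between the groups. miR-132 and miR-212 are neighbouring activity-regulated miRNAs of neurons. miR-212-3p stood at 443, 389 and 422 CPM in EVs and at 102, 173 and 178 CPM in Cells, and rose by 1.01 on the log2 scale (SE 0.22, edgeR adjusted p = 0.00416). miR-212-5p stood at 30.2, 66.9 and 42.1 CPM in EVs and at 211, 78.8 and 119 CPM in Cells, a change of -2.08 in log2 units (SE 0.48, edgeR adjusted p = 0.00519). miR-132-5p fell as well, with a log2 fold change of -1.14 (SE 0.27, edgeR adjusted p = 0.00616), where miR-132-3p rose. All 4 calls held with library size only and without each library in turn. Over all 187 tested hairpins, the median log2 difference of the 5p to 3p ratio between EVs and Cells was -0.46. The 5p share was called lower in EVs for 43 hairpins (23%) and higher for 24. That median was -0.24 without Cells replicate 2. The arms of miR-124 did not move in opposite directions: both were called higher in EVs, the 5p arm in only 7 of 17 alternatives.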
